A study of Homo sapiens with 24 samples.

Results

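The 125 probes described here report transcripts that SW-13 cells already expressed and that rose when SUZ12 was knocked down. They were chosen by their own signals. All 3 arrays of untreated siCtrl cells had to detect the probe at a detection p-value below 0.01, its mean log2 signal had to be at least 1 higher in untreated siSUZ12 cells than in untreated siCtrl cells, and its mean log2 signal in siSUZ12 cells had to rise by less than 1 with IFNγ. Of the 47231 probes on the array, 14395 passed the detection step, 127 of those were raised 2-fold, and the limit on the IFNγ change removed 2. The members thus made up 0.265% of all probes and 0.868% of the detected ones. The files pair no probe with a gene, so the members were counted as probes and numbered from rank 1, the largest untreated rise, to rank 125, the smallest, and several of them may belong to the same gene.

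Expression was measured in SW-13, a human adrenocortical carcinoma line that lacks BRG1. Cells were transfected in 2 cycles with 50 nM of a control siRNA (siCtrl) or of an siRNA against SUZ12 (siSUZ12, labelled siSUZ), either alone or together with 75 nM of an siRNA against BRM (siBRM), and were then left untreated or given IFNγ for 6 hours. This made 8 groups, namely siCtrl, siSUZ12, siCtrl + siBRM and siSUZ12 + siBRM, each untreated and with IFNγ. Each group held 3 biological replicates on Human-HT-12 BeadChips, on which the brightness of a probe measures its transcript. The knockdowns were transient and made in 1 cell line, and the controls of the siSUZ12 + siBRM groups carried siBRM as well. With siBRM the total siRNA was 125 nM, and 0 groups received that amount without siBRM, so an effect of BRM loss and an effect of the siRNA dose cannot be told apart. In such bulk RNA, more transcript per cell and more cells with the transcript cannot be told apart either.

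SUZ12 is a core subunit of Polycomb repressive complex 2 (PRC2), whose catalytic subunit EZH2 places the H3K27me3 mark on chromatin, and that mark is associated with silent genes. PRC2 is best known for keeping developmental genes off, and the mark can also lie, together with active marks, on genes that are weakly transcribed. BRM, like BRG1, is an ATPase that drives the SWI/SNF chromatin remodelling complex, and SWI/SNF and Polycomb proteins are known as antagonists in development. The groups with siBRM addressed whether BRM takes part in the response to the loss of SUZ12.

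Before scaling, mean signals of the arrays lay between 532 and 635, and an array detected between 15223 and 16799 probes. The correlation of log2 signals was 0.994 to 0.995 within groups and 0.982 to 0.994 between groups, and the closest match of each of the 24 arrays was in its own group. Probes with no detectable transcript (detection p-value of 0.5 or more) had a median signal between 80.6 and 91.2 per array after scaling, and this background was not subtracted here, so log2 differences of dim probes were understated. The knockdown of SUZ12 and of BRM was not read from these arrays, because no probe could be assigned to either gene.

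The members were expressed at modest signals in siCtrl cells. Their mean signal in untreated siCtrl cells ranged from 140 to 5265, with a median of 334 and quartiles of 200 and 585. The median over the 14395 detected probes was 429, with quartiles of 222 and 1104. A probe's brightness also depends on its sequence, so levels were compared between groups within a probe. At 32 members the siCtrl signal was below 200, close to the background.

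In untreated siSUZ12 cells the median signal of the members was 910, with quartiles of 578 and 1579 and a range from 295 to 10908. The log2 difference from siCtrl, which defined the members, ran from the limit of 1 to 3.23 with a median of 1.23 and quartiles of 1.08 and 1.60. In folds, the median rise was 2.35 and the highest 9.40. Most members thus rose by little more than the limit, and 1 in 10 had a log2 rise above 1.95. The 3 members just inside the limit rose from siCtrl signals of 797, 1336 and 164 to siSUZ12 signals of 1595, 2679 and 329, and the 3 detected probes just outside it rose from 201, 182 and 923 to 401, 363 and 1841. Among all probes, 0.451% were raised 2-fold at an adjusted p-value below 0.05 in that comparison, and these values are given as a description because they chose the members.

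The rise was seen array by array. The median log2 signal of the 125 members over the mean of the untreated siCtrl arrays was 1.21, 1.23 and 1.24 in the 3 untreated siSUZ12 arrays and between -0.03 and 0.02 in the siCtrl arrays. In siSUZ12 + siBRM cells, whose arrays did not enter the choice, it was 1.09, 1.15 and 1.16 untreated and between 1.05 and 1.08 with IFNγ. In siCtrl + siBRM cells it was 0.24, 0.25 and 0.29 untreated and between 0.13 and 0.17 with IFNγ. The arrays thus fell into a high set with siSUZ12 and a low set without it, which did not overlap in these medians, and within the low set the siBRM arrays lay above the others.

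**Figure D1:**
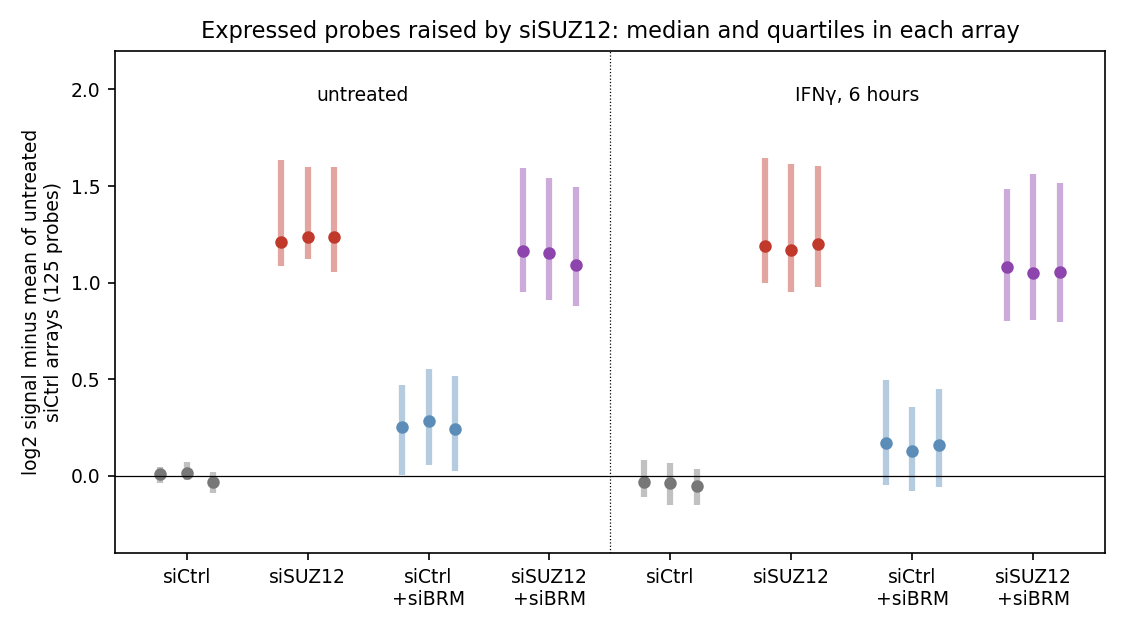
Log2 signal of the 125 expressed probes raised by siSUZ12, relative to the mean of the untreated siCtrl arrays, in each of the 24 arrays. Each point is the median over the probes in 1 array and each bar runs from the lower to the upper quartile over the probes. The 12 siSUZ12 arrays have medians between 1.05 and 1.24 and the 12 siCtrl arrays medians between -0.05 and 0.29.

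The siSUZ12 effect was tested in cells with siBRM, which had siCtrl + siBRM controls of their own and shared no array with the choice of members. In untreated siBRM cells siSUZ12 raised 123 of the 125 members and lowered 0 (limma, Benjamini-Hochberg adjusted p-value below 0.05 over 47231 probes), where 5.04% of all probes were raised and 2.98% lowered. By the unadjusted p-value, below 0.05 for 5.86% of all probes in the lowered direction, the number lowered was also 0. The log2 difference had a median of 0.81, or 1.76-fold, with quartiles of 0.65 and 1.20 and a range from 0.14 to 2.87, and the median over all probes was 0.04. The rise reached 2-fold at 47 members, or 37.6%, against 0.241% of all probes. These 47 were 41.2% of the 114 probes on the array raised 2-fold there. The 3 siSUZ12 + siBRM arrays lay above the 3 siCtrl + siBRM arrays at 124 members, where 15% of all probes were separated in that way.

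With IFNγ and without siBRM, siSUZ12 raised the members about as much as it did untreated. The median log2 difference was 1.22, or 2.33-fold, with a range from 0.71 to 3.15. The test found 125 of 125 raised and 0 lowered (limma, Benjamini-Hochberg adjusted p-value below 0.05), against 7.28% and 6.95% of all probes, and 95 members, or 76%, were raised 2-fold, against 0.481% of all probes. The siSUZ12 arrays with IFNγ had entered the choice of members as a limit from above, so this comparison was not fully separate from it. In siBRM cells with IFNγ, on arrays outside the choice, the median log2 difference was 0.83 with a range from 0.27 to 3.10, 124 members were raised and 0 lowered (limma, Benjamini-Hochberg adjusted p-value below 0.05) against 4.72% and 3.35% of all probes, and 45 members, or 36%, were raised 2-fold against 0.292% of all probes. By the unadjusted p-value 0 members were lowered in either comparison, against 11.5% of all probes without siBRM and 7.07% with it.

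A total of 122 members passed the adjusted test (limma with Benjamini-Hochberg adjustment) in the 3 comparisons, and 37 were raised 2-fold in the 3. In siBRM cells 41 were raised 2-fold both untreated and with IFNγ, and 74 in neither state. Each of the 3 members that missed the threshold in 1 comparison is described by its rank, chosen after its values were seen. The member at rank 97 had signals of 620, 740 and 757 in untreated siCtrl + siBRM cells and of 917, 848 and 596 in untreated siSUZ12 + siBRM cells, which overlapped, with a log2 difference of 0.14 (adjusted p = 0.596, limma with Benjamini-Hochberg adjustment). The member at rank 93 had signals of 155, 167 and 155 against 176, 178 and 181, a log2 difference of 0.17 (adjusted p = 0.199, limma with Benjamini-Hochberg adjustment) at a signal near background. The member at rank 31 missed with IFNγ, at signals of 1880, 1893 and 2185 in siCtrl + siBRM and of 2119, 2551 and 2637 in siSUZ12 + siBRM cells, which overlapped, with a log2 difference of 0.29 (adjusted p = 0.0630, limma with Benjamini-Hochberg adjustment).

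The 25 members that rose most without siBRM also had the largest median rise with it, and the lower ranks differed little from each other. The 25 members of the highest ranks had a median log2 rise of 1.95 in the comparison that chose them and of 1.71 in untreated siBRM cells, where 23 of the 25 were raised 2-fold. The next 50 had medians of 1.29 and 0.81, with 12 raised 2-fold, and the last 50 had medians of 1.07 and 0.74, again with 12 raised 2-fold. Across the members these untreated effects without and with siBRM had a Pearson r of 0.766 and a Spearman rho of 0.520. Across the 125 members the log2 siSUZ12 effects with IFNγ in cells without and with siBRM, which share no array, had a Pearson r of 0.742 and a Spearman rho of 0.634, and the Pearson r over the 14395 detected probes was 0.812. These are descriptions across probes, which are not independent replicates. The siSUZ12 effect with IFNγ had no such relation to the siCtrl signal (Pearson r of -0.05, Spearman rho of 0.02 over the 125 members).

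**Figure D2:**
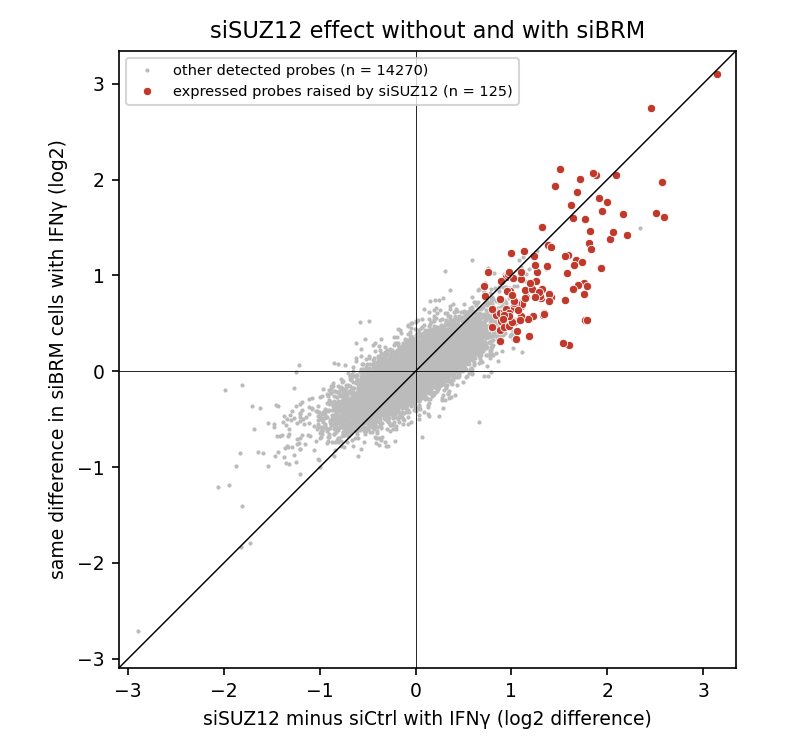
Log2 difference between siSUZ12 and siCtrl cells with IFNγ, without siBRM on the horizontal axis and with siBRM on the vertical axis, for the 14395 probes that untreated siCtrl cells expressed. Each point is 1 probe, the 125 members are in red, and the diagonal marks equal effects. Each member lies above 0 on both axes, and 107 of the 125 lie below the diagonal.

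The member with the largest rise was probe ILMN_1699772. Its signals were 502, 505 and 440 in untreated siCtrl cells and 4810, 4431 and 4334 in untreated siSUZ12 cells. They were 432, 371 and 314 in untreated siCtrl + siBRM cells and 2775, 2851 and 2465 in untreated siSUZ12 + siBRM cells. The siSUZ12 arrays thus lay far above the controls in both backgrounds, and both siBRM groups lay below their counterparts without siBRM. With IFNγ the signals were 487, 502 and 507 in siCtrl, 4592, 4416 and 4233 in siSUZ12, 336, 343 and 340 in siCtrl + siBRM and 2784, 2996 and 2962 in siSUZ12 + siBRM cells, so that the order of the groups was as in untreated cells. The log2 siSUZ12 effect at ILMN_1699772 was 2.87 in untreated siBRM cells (standard error 0.09, adjusted p = 1.75e-22, limma with Benjamini-Hochberg adjustment), 3.15 with IFNγ (adjusted p = 5.04e-24) and 3.10 with IFNγ and siBRM (adjusted p = 9.26e-24). The difference between the last pair was -0.04 (adjusted p = 0.957, limma interaction).

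The member brightest in siCtrl cells was probe ILMN_1796179, at rank 104. Its signals were 5361, 4748 and 5734 in untreated siCtrl cells and 10866, 10568 and 11303 in untreated siSUZ12 cells. They were 8999, 8649 and 8660 in untreated siCtrl + siBRM cells and 12200, 12432 and 13636 in untreated siSUZ12 + siBRM cells. Here the siCtrl + siBRM arrays lay between the siCtrl and the siSUZ12 arrays, and the siSUZ12 + siBRM arrays above both. With IFNγ its signals were 5200, 5522 and 4735 in siCtrl, 10447, 10552 and 10757 in siSUZ12, 8539, 8511 and 8523 in siCtrl + siBRM and 11535, 13137 and 12083 in siSUZ12 + siBRM cells. The log2 siSUZ12 effect at ILMN_1796179 was 0.54 in untreated siBRM cells (standard error 0.08, adjusted p = 8.66e-06, limma with Benjamini-Hochberg adjustment), 1.04 with IFNγ (adjusted p = 2.40e-12) and 0.52 with IFNγ and siBRM (adjusted p = 1.37e-05). The difference between the last pair was -0.52 (adjusted p = 0.00932, limma interaction), and siBRM raised ILMN_1796179 in siCtrl cells with IFNγ by a log2 of 0.73 (adjusted p = 7.46e-08, limma).

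In cells without siSUZ12, many members differed with siBRM, and most of those were higher. In siCtrl cells with IFNγ, on arrays that did not enter the choice, siBRM raised 46 of the 125 members and lowered 9 (limma, Benjamini-Hochberg adjusted p-value below 0.05), where 1.41% of all probes were raised and 1.72% lowered. Among the detected probes, from which the members came, 4.18% were raised and 5.43% lowered, against 36.8% and 7.2% of the members. The share of members lowered was thus near that of the detected probes. The log2 difference had a median of 0.20, or 1.15-fold, with quartiles of 0.03 and 0.43 and a range from -0.91 to 1.16. It was above 0 at 96 members and below 0 at 29, and the median over all probes was -0.01. The 3 siCtrl + siBRM arrays lay above the 3 siCtrl arrays at 62 members and below them at 17, against 7.67% and 8.89% of all probes. Among the detected probes the shares were 16.4% and 17.9%, against 49.6% and 13.6% of the members, so the members below were no excess. The counts of 46 raised and 9 lowered by the adjusted test were smaller with a replicate number left out. They were 39 and 8 without replicate 1, 32 and 7 without replicate 2, and 31 and 7 without replicate 3.

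The few probes raised 2-fold by siBRM were nearly all members. On the whole array siBRM raised 9 probes 2-fold in siCtrl cells with IFNγ (limma with Benjamini-Hochberg adjustment), or 0.0191%, and 8 of those 9 were members. The ninth, expressed by all 3 untreated siCtrl arrays, had a log2 siBRM effect of 1.03 and had missed the choice with a log2 siSUZ12 effect of 0.90. The largest siBRM effect among members, a log2 of 1.16, was 2.23-fold. None of the 26 probes lowered 2-fold by siBRM was a member. Those were 0.055% of all probes and 0.181% of the detected ones, so 0 of 125 members was near that share. The count of 8 became 14 after neqc, a background correction based on the detection p-values.

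Other sets of siSUZ12 probes had other siBRM values. Of the 77 probes that no untreated siCtrl array detected and that siSUZ12 raised 2-fold, siBRM raised 4 and lowered 0 (limma, Benjamini-Hochberg adjusted p-value below 0.05), with a median log2 difference of 0.01. Of the 94 probes that siSUZ12 lowered 2-fold, siBRM lowered 53 and raised 2, with a median of -0.33. In untreated siBRM cells siSUZ12 raised 54 of the 77 silent probes 2-fold, or 70.1%, with a median log2 difference of 1.16, against the 37.6% and 0.81 of the expressed members. The differences between the sets were not tested, and the controls of the silent probes lay at background.

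The same siBRM comparison in untreated cells used the siCtrl arrays that chose the members, so its values are a description. The log2 difference had a median of 0.26 and was above 0 at 96 members and below 0 at 29. The siBRM effects of the members in untreated cells and with IFNγ, on separate arrays, had a Pearson r of 0.955 and a Spearman rho of 0.948 across the 125 members, and a Pearson r of 0.802 across the detected probes.

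**Figure D3:**
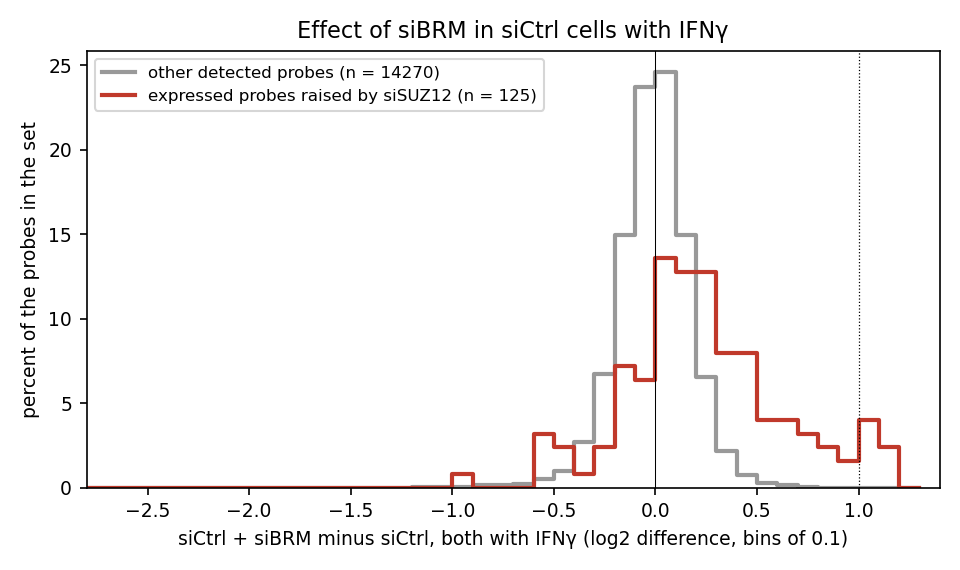
Distribution of the log2 difference between siCtrl + siBRM and siCtrl cells with IFNγ, as the percent of probes in bins of 0.1. The 125 members (red) are shown beside the 14270 other probes that untreated siCtrl cells expressed (grey), the solid line marks 0 and the dotted line a 2-fold rise. The members extend to the right, with a median of 0.20 and 8 probes at or above the dotted line.

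In siSUZ12 cells siBRM did not raise the members in the same way. The log2 difference between siSUZ12 + siBRM and siSUZ12 cells with IFNγ had a median of -0.15, with 5 members raised and 36 lowered (limma, Benjamini-Hochberg adjusted p-value below 0.05), against 1.68% and 1.71% of all probes. The untreated median was also -0.15, on the siSUZ12 arrays that chose the members for high signals, and is given as a description. With siBRM the controls were higher and the siSUZ12 cells slightly lower, so the siSUZ12 effect was smaller. Tested by the interaction term with IFNγ, it was smaller in siBRM cells at 48 members and larger at 1 (limma with Benjamini-Hochberg adjustment), where 0.599% of all probes had a more negative and 0.697% a more positive difference. A smaller effect was not particular to the members. The siSUZ12 effect was called smaller at 12 of the 77 silent probes, or 15.6%, with a median difference of -0.21. Of the 94 probes that siSUZ12 lowered, 68, or 72.3%, had a less negative effect with siBRM, with a median difference of 0.63. The interaction term and the siBRM comparison in siSUZ12 cells used the siSUZ12 arrays with IFNγ. Those arrays had entered the choice of members as a limit from above, so neither result was fully separate from it. The rule also required a 2-fold siSUZ12 effect in untreated cells without siBRM and set no such limit in siBRM cells. It thus favoured probes with a smaller siSUZ12 effect in siBRM cells. The difference of the 2 log2 effects had a median of -0.37 and a range from -1.33 to 0.61, and 107 of 125 members were below 0. It reached 2-fold at 4 members, of the 7 probes on the array with such a fall, or 0.0148%. The median ratio of a member's log2 siSUZ12 effect with siBRM to that without was 0.673 with IFNγ. The count of 48 was 26, 19 and 25 without replicate 1, 2 and 3, and the 4 members past 2-fold became 13 after neqc.

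The order of the 4 group means showed the same pattern. At each of the 125 members both siSUZ12 groups had higher mean signals than both siCtrl groups, in untreated cells, where the choice bears on it, and with IFNγ. With IFNγ the lowest group was siCtrl at 96 members and siCtrl + siBRM at 29, and the highest was siSUZ12 at 83 and siSUZ12 + siBRM at 42. The most frequent order, at 57 members, rose from siCtrl through siCtrl + siBRM and siSUZ12 + siBRM to siSUZ12. At 39 members siSUZ12 + siBRM was the highest and siCtrl the lowest, at 26 siCtrl + siBRM was the lowest and siSUZ12 the highest, and at 3 the lowest was siCtrl + siBRM and the highest siSUZ12 + siBRM. Not every step in this order passed the test, since siBRM passed it at 55 members in siCtrl and at 41 in siSUZ12 cells. The siCtrl + siBRM arrays lay above the siCtrl arrays at 62 members and below at 17 (16.4% and 17.9% of detected probes). In siSUZ12 cells the siBRM arrays lay above the others at 17 members and below at 57 (17.9% and 15.5% of detected probes). At the remaining members these arrays overlapped.

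The members fell into 3 kinds by the siBRM test in siCtrl cells with IFNγ, and the kinds were then read on the untreated arrays. The 46 members raised by siBRM had a median log2 siSUZ12 effect of 0.75 in untreated siBRM cells, and 13 of them were raised 2-fold there. The 70 members without a siBRM call had a median of 0.87, and 25 were raised 2-fold. The 9 members lowered by siBRM had a median of 1.71, and 9 of 9 were raised 2-fold. In untreated cells without siBRM, the comparison that chose the members, the medians were 1.45, 1.15 and 1.60 in the same order. The untreated siBRM effect in siCtrl cells, which used arrays of the choice and is given as a description, had medians of 0.64, 0.12 and -0.42 in the 46, the 70 and the 9. In siSUZ12 cells with IFNγ the median log2 siBRM effect was 0.05 for the 46, -0.23 for the 70, of which 27 were lowered, and -0.27 for the 9. Of the 46, 5 were lowered by siBRM in siSUZ12 cells with IFNγ, and of the 70, 50 had a siBRM effect above 0 in siCtrl cells with IFNγ. The differences between the kinds were not tested.

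At a few members siBRM brought the control cells close to the siSUZ12 cells. The member at rank 30, chosen with the other ranks below after the values were seen, had signals of 1192, 1305 and 1203 in untreated siCtrl, 3908, 3697 and 3838 in siSUZ12, 2626, 2815 and 2479 in siCtrl + siBRM and 3782, 4094 and 3585 in siSUZ12 + siBRM cells. With IFNγ it had signals of 1663, 1518 and 1507, of 4597, 4814 and 4783, of 3561, 3501 and 3405, and of 4123, 4121 and 4378 in the same order of groups. The siCtrl + siBRM arrays thus lay much nearer to the siSUZ12 than to the siCtrl arrays with IFNγ. siBRM raised it by a log2 of 1.16 (adjusted p = 5.07e-13, limma with Benjamini-Hochberg adjustment), and siSUZ12 by 1.60 without siBRM (adjusted p = 5.80e-18) and by 0.27 with it (adjusted p = 0.0182). The difference of the 2 siSUZ12 effects was -1.33 (adjusted p = 7.87e-10, limma interaction), the largest fall among the members. The members at ranks 20 and 31 had siBRM effects of 1.16 and 1.10 and differences of -1.24 (adjusted p = 4.61e-08) and -1.25 (adjusted p = 5.70e-07, limma interaction).

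At the other end, siBRM lowered the member at rank 95 to background in siCtrl cells. Its signals were 173, 157 and 178 in untreated siCtrl, 385, 340 and 351 in siSUZ12, 87.2, 90.6 and 92.4 in siCtrl + siBRM and 231, 221 and 197 in siSUZ12 + siBRM cells. With IFNγ they were 160, 176 and 163, then 346, 329 and 321, then 90.9, 92.7 and 82.5, then 200, 219 and 209. The siCtrl + siBRM arrays did not detect it in either state, and the siSUZ12 + siBRM arrays lay above the siCtrl arrays. With IFNγ the log2 siBRM effect was -0.91 (adjusted p = 8.63e-10, limma with Benjamini-Hochberg adjustment), and the log2 siSUZ12 effect in untreated siBRM cells was 1.26 (adjusted p = 5.21e-14). In both, the siCtrl + siBRM signal lay at background, so the background limits the size of both values. It was 1 of 7 members that some siCtrl or siCtrl + siBRM group no longer detected on all 3 arrays. All 125 were detected by all 3 arrays of each siSUZ12 group.

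**Figure D4:**
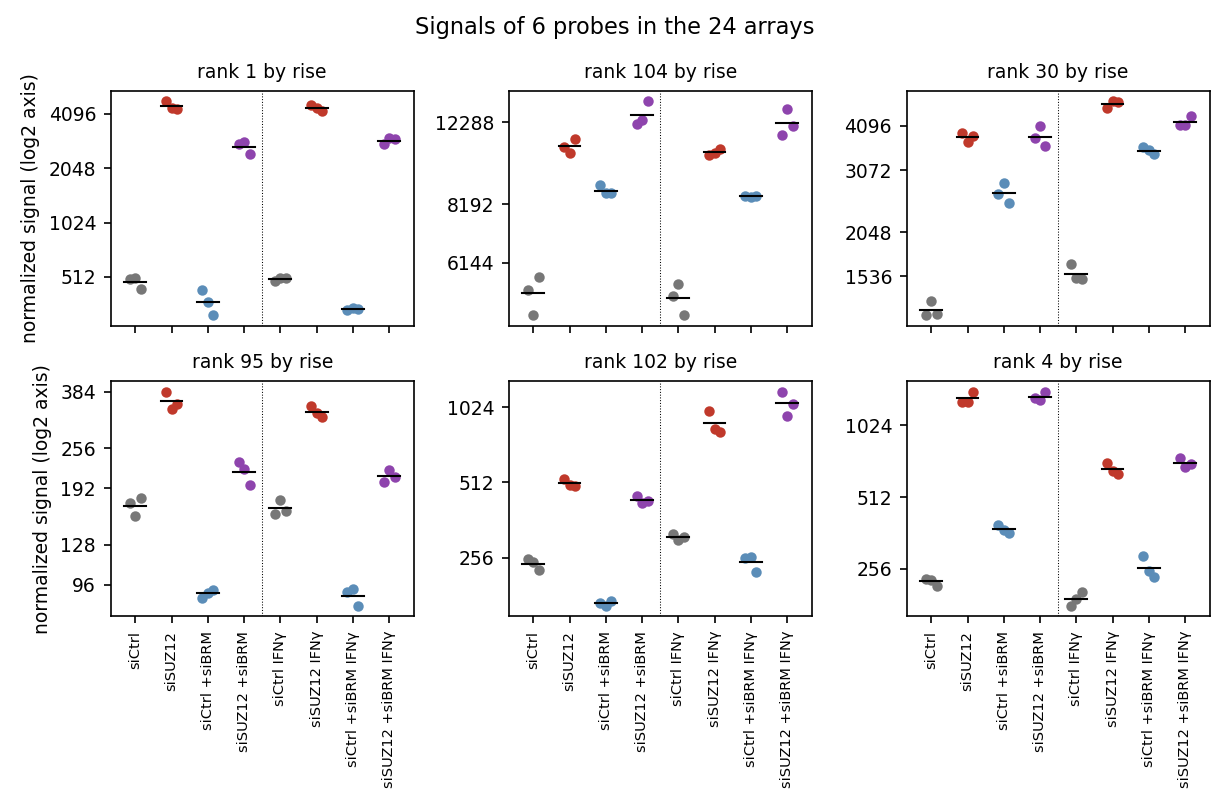
Normalized signal of 6 members on a log2 axis in the 24 arrays, with 3 points per group, a bar at the group mean and a dotted line between untreated groups and groups with IFNγ. Ranks 1 and 104 are the members with the largest rise and the highest siCtrl signal, and ranks 30, 95, 102 and 4 were chosen after the values were seen. siCtrl + siBRM lies near siSUZ12 at rank 30 and below siCtrl at rank 95, and IFNγ raises rank 102 and lowers rank 4.

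In siBRM cells IFNγ changed the members by less than 2-fold, with 1 exception. These 2-fold counts were near the shares of the detected probes. Of those, 0.41% were raised 2-fold in siCtrl + siBRM and 0.632% in siSUZ12 + siBRM cells. Without the 2-fold limit, more members passed the test than the share over all probes, and most of those members fell. The choice had capped the IFNγ rise in siSUZ12 cells without siBRM, so the test was read in siBRM cells. This does not free the count of 2-fold rises from the choice. The cap had removed 2 of 127 probes, which could also have risen 2-fold in siBRM cells. In siCtrl + siBRM cells IFNγ raised 3 members and lowered 8 (limma, Benjamini-Hochberg adjusted p-value below 0.05), where 0.987% of all probes were raised and 0.315% lowered. In either direction this was 8.8% of the members and 1.3% of all probes. Among the detected probes 2.58% were raised and 0.959% lowered, against 2.4% and 6.4% of the members. The members raised were thus no excess over the detected probes. In siSUZ12 + siBRM cells those shares were 3.49% and 2.68% of the detected probes, against 7.2% and 16.8% of the members. In siCtrl + siBRM cells 0 members rose or fell by 2-fold, against 0.159% and 0.00212% of all probes. By the unadjusted p-value 8 members were raised and 26 lowered there, against 4.89% and 3.82% of all probes. The log2 difference in siCtrl + siBRM cells had a median of -0.07 and a range from -0.63 to 0.54. In siSUZ12 + siBRM cells IFNγ raised 9 members and lowered 21, in either direction 24% of the members, against 1.44%, 0.915% and 2.35% of all probes, with a median of -0.08 and a range from -0.93 to 1.28, and 1 member rose 2-fold, against 0.296% of all probes. Without a replicate number, between 4 and 5 members in siCtrl + siBRM and between 13 and 17 in siSUZ12 + siBRM cells passed in either direction, in place of 11 and 30. Across the 125 members the IFNγ effects in these backgrounds, on separate arrays, had a Pearson r of 0.729 and a Spearman rho of 0.626.

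The 1 member that IFNγ raised 2-fold was at rank 102. Its signals in siSUZ12 + siBRM cells were 450, 423 and 431 untreated and 1181, 948 and 1056 with IFNγ, a log2 rise of 1.28 (adjusted p = 1.04e-13, limma with Benjamini-Hochberg adjustment). In siCtrl + siBRM cells they were 169, 165 and 172 untreated and 254, 257 and 225 with IFNγ, a rise of 0.54 (adjusted p = 6.64e-05, limma). The arrays of the IFNγ groups lay above those of the untreated groups in both backgrounds. It was also the only member whose siSUZ12 effect with IFNγ was larger in siBRM cells by the interaction term, with an effect of 2.11 in siBRM cells that exceeded the one without siBRM by 0.61 (adjusted p = 0.00349, limma interaction). Without replicate 2 or without replicate 3, 0 members had a larger effect by that test.

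Among the members that fell with IFNγ, the largest fall in siSUZ12 + siBRM cells was at rank 4. Its signals there were 1340, 1310 and 1417 untreated and 744, 687 and 704 with IFNγ, a log2 change of -0.93 (adjusted p = 1.41e-10, limma with Benjamini-Hochberg adjustment). In siCtrl + siBRM cells they were 390, 371 and 361 untreated and 289, 249 and 236 with IFNγ, a change of -0.54 (adjusted p = 3.14e-05, limma). The untreated and IFNγ arrays did not overlap in either background. The member at rank 96 fell by 0.63 on the log2 scale in siCtrl + siBRM cells (adjusted p = 3.83e-06, limma) and by 0.75 in siSUZ12 + siBRM cells (adjusted p = 6.08e-08, limma). Even so, the siSUZ12 groups stayed above their controls at both ranks with IFNγ, with log2 siSUZ12 effects in siBRM cells of 1.47 at rank 4 and 0.61 at rank 96.

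By siCtrl signal, the untreated siSUZ12 rises that chose the members had medians of 1.14, 1.29, 1.19 and 1.26 from the dimmest to the brightest of 4 groups, with no steady order. For the 32 dimmest members, with siCtrl signals from 140 to 200, the median log2 siSUZ12 effect in untreated siBRM cells was 1.04 and 18 members were raised 2-fold. For the 31 brightest, from 588 to 5265, it was 0.75, and 9 were raised 2-fold. The median siBRM effect in siCtrl cells with IFNγ was 0.07 for the dimmest and 0.31 for the brightest, and 0.18 and 0.22 for the groups of 31 between them. After neqc the median siSUZ12 effect over the members was 1.03 in untreated siBRM cells and the median siBRM effect 0.26.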

How the data were processed

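The authors hybridized biotinylated cRNA of SW-13 cells to Human-HT-12 BeadChips, read with BeadStudio, and deposited the unnormalized intensity of every probe on every array. Beside each intensity the authors deposited a detection p-value. Whether background had been subtracted is not stated in the sources used here. Groups and replicate numbers came from the sample labels. As a stand-in for the average normalization the study names, arrays were scaled to equal means, at the average over the 24 arrays, and transformed to log2 after a floor of 16 that 0 values met. One limma model (version 3.58.1, R 4.3.3) held the 24 arrays, with 8 group means and 16 residual degrees of freedom. Benjamini-Hochberg adjustment covered the 47231 probes. Calls used an adjusted p-value below 0.05, with or without a 2-fold change. Residual SDs on the log2 scale had medians of 0.09 over the members and 0.11 over all probes, and 3 arrays per group limit the precision. The fit was tested on simulated data. Plots used matplotlib 3.10.9 (Python 3.11.15).

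The members and the lists were chosen with earlier results of these data known. 0 probe IDs were found in the gene tables used here, so the gene lists, cell markers and both siRNA targets were not analysed. With no gene names, the rule was to print the member with the largest untreated rise, the brightest member and up to 2 members that siSUZ12 lowered in untreated siBRM cells, of which there were 0. Other ranks were chosen after their values were seen. Comparisons that use the untreated siCtrl or siSUZ12 arrays are given as values, without calls on the members. The alternatives were quantile normalization, neqc with an offset of 16, a floor of 64, a filter to probes that 3 or more arrays detected, a fit to the 4 groups concerned, trend and robust settings, a replicate block, other call limits, other limits of the member rule, and leaving out each replicate number.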

Additional observations from a re-analysis of the deposited data

Results flagged for a closer look

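By limma's interaction term (Benjamini-Hochberg adjusted p-value below 0.05), the siSUZ12 effect with IFNγ depended on siBRM at 49 members. It was smaller with siBRM at 48 members, where 0.599% of all probes had a more negative difference. This count was 26, 19 and 25 without replicate 1, 2 and 3, and the choice of members favoured this direction. It was larger at 1 member, that at rank 102, where 0.697% of all probes had a more positive difference.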

How the results depend on the processing

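Without the 2-fold limit, at an adjusted p-value below 0.05 alone (limma with Benjamini-Hochberg adjustment), the members raised by siSUZ12 numbered 123 in untreated siBRM cells and 124 with IFNγ, those moved by IFNγ 11 in siCtrl + siBRM and 30 in siSUZ12 + siBRM cells, those raised by siBRM 46, and those with a smaller siSUZ12 effect in siBRM cells 48. After neqc the 2-fold counts were 2 for IFNγ in siSUZ12 + siBRM cells, 14 for siBRM and 13 for the smaller siSUZ12 effect, in place of 1, 8 and 4. The member rule gave 251 probes after neqc, 124 of them shared, and 576 with a 1.5-fold limit, in place of 125. The other settings gave 2-fold counts within 1.5 times those reported. With each replicate number left out in turn, 45 to 48 and 43 to 48 members were raised 2-fold by siSUZ12 in siBRM cells untreated and with IFNγ, 92 to 97 without siBRM, 0 to 0 and 1 to 1 by IFNγ in siCtrl + siBRM and siSUZ12 + siBRM cells and 6 to 9 by siBRM, and 4 to 6 had a smaller siSUZ12 effect. The rule then gave 127 to 129 members. Of these, 117, 113 and 119 were among the 125 without replicate 1, 2 and 3. The causes of these shifts were not tested. For ILMN_1699772 and ILMN_1796179 the siSUZ12 effects had the same sign and an adjusted p-value below 0.05 in 60 of 60 alternative values, but the log2 effect on ILMN_1796179 with IFNγ and no siBRM, 1.04, fell under the 2-fold limit without replicate 3, at 0.97.

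The replicate numbers were not taken as pairs. Deviations of same-numbered arrays from their group means correlated with a median of 0.13 (-0.11 to 0.39), 34 of 84 pairs were at or under 0.1, and 3 to 5 of 6 arrays per comparison correlated best with their own number. For differently numbered arrays the median was -0.05, so arrays of the same number were slightly more alike. With a replicate block the 2-fold counts were 47, 45 and 95 for siSUZ12, 0 and 1 for IFNγ, 8 for siBRM and 4 for the smaller siSUZ12 effect, as without it, and 51 members had a smaller siSUZ12 effect at an adjusted p-value below 0.05.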
